A study of Mus musculus with 29 samples.

Results

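The 10 genes described here are the TGF-beta ligand Tgfb1, its receptors Tgfbr1, Tgfbr2 and Tgfbr3, the Smads Smad2, Smad3, Smad4, Smad6 and Smad7, and the co-repressor Ski. They were taken by symbol from RNA-seq gene counts of mouse hematopoietic stem cells (HSCs), in which 55376 symbols were listed, and 10 of 10 were found and tested among the 33690 genes that passed the filter on low counts. The 19 libraries were from young wild-type mice (YWT, n = 4), old wild-type mice (OWT, n = 4), young mice labelled Gadd45KO (YKO, n = 4) and old mice labelled Gadd45KO (OKO, n = 7), with no treatment named. The study's methods name a Gadd45b knockout line that was bred and aged in one animal facility. The labels give ages only as young and old. HSCs were sorted from bone marrow, and RNA was amplified from few cells with a SMART-seq kit. The comparisons ask whether the genes of the TGF-beta pathway, of which Gadd45b is a known target, differ with age and with Gadd45b.

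TGF-beta is made in a latent form, and once released it brings together the type II receptor Tgfbr2 and the type I receptor Tgfbr1, whose kinase phosphorylates Smad2 and Smad3. These then pair with Smad4 and enter the nucleus to act on target genes. Tgfbr3 (betaglycan) presents the ligand, Smad6 and Smad7 are inhibitory Smads, and Ski represses Smad-dependent transcription. In the bone marrow TGF-beta is known as a signal that holds HSCs in quiescence.

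The targeted gene was examined first. Gadd45b was at 9.1, 17.5, 8.2 and 7.3 CPM (counts relative to the library total, scaled by trimmed-mean normalization) in YWT and at 12.7, 14.3, 6.0 and 5.1 in YKO, so the young groups overlapped (log2 fold change -0.14, SE 0.36, edgeR quasi-likelihood test, Benjamini-Hochberg adjusted p = 1.00). OWT libraries held 10.1, 10.4, 15.5 and 10.2 CPM. The 7 OKO libraries held 2.8 to 6.9 CPM, each below every OWT library, as in 0.359% of tested genes (log2 fold change -1.37, SE 0.31, edgeR adjusted p = 0.267). YKO and YWT could thus not be told apart by their Gadd45b counts. Counts are summed over the whole gene, and which part of it the allele removes is not given in the sources used here. The directions below for YKO and OKO are those of libraries labelled so.

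Library totals ran from 22197555 to 77970627 counts. Batch, read from the title prefix, divides the series: YWT, YKO and OKO1 to OKO3 form batch 1, and OWT and OKO4 to OKO7 form batch 2, so age and batch cannot be told apart in the wild type. Nor can they in OKO vs YKO when OKO1 to OKO3 are left out, as OKO is then of batch 2 alone. The highest normalization factors were those of OKO1 (1.83), OKO3 (1.41) and OKO2 (1.24), the OKO libraries of batch 1, against 0.692 to 1.22 in the other libraries. OKO2 lay close to YWT4 (1.22). The labels give female for all libraries, whereas 7 of 19 held Y-linked transcripts, and the study's methods state that both sexes were used. Summed HSC markers ranged from 2064 to 4354 CPM over all libraries. Markers of other cells were present as well. Summed B cell markers (8 of 8 detected) were at 213 to 647 CPM in YWT, 65.4 to 212 in OWT, 192 to 1470 in YKO and 27.6 to 202 in OKO. Summed erythroid markers (7 of 7 detected) were at 618 to 2042, 140.2 to 922, 1560 to 4454 and 33.6 to 2531 CPM in the same order. Summed plasma cell markers (6 of 6 detected) were at 1323 to 26883, 435.5 to 2897, 753 to 13708 and 123 to 4667 CPM, highest in YWT2, which also had the lowest normalization factor (0.692). No listed marker of these types was at 0 throughout. In such bulk samples, fewer cells of a type and less RNA per cell cannot be told apart.

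Because the study set RNA beside CpG methylation, the 250 bases before the start were read for the members with an entry in the RefSeq promoter table (GRCm38.p6), which held 6 of 10. The promoters of Tgfb1 and Smad6 are shown, as the genes whose groups did not overlap in the comparisons below. Capitals mark each CpG, the dinucleotide at which mammalian DNA is methylated. The Tgfb1 window is chr7:25686752-25687001 on the plus strand, and that of Smad6 is chr9:64022060-64022309 on the minus strand, both written 5′ to 3′.
Tgfb1: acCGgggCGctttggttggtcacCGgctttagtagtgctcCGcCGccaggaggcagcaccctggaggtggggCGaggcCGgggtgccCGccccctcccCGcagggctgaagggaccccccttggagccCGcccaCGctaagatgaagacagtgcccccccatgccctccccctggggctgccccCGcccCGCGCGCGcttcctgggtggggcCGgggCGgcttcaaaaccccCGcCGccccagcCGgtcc
Smad6: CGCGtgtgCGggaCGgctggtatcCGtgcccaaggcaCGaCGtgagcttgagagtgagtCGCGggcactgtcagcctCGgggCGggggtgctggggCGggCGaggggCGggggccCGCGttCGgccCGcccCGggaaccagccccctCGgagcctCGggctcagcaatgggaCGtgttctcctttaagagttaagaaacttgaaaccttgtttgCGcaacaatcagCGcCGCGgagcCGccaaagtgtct
Tgfb1 held 21 CpGs and Smad6 held 27, against a median of 6 (quartiles 2 and 16) over 32851 promoters of this length, and the GC content was 75.2% and 66.8% against a median of 52.4%. Ski (53 CpGs) and Smad3 (22) also lay above the upper quartile, Tgfbr2 (12) lay inside the quartiles, and the start sites listed for Tgfbr1 had 29 and 3. The Smad-binding palindrome GTCTAGAC, which occurs in 0.167% of these promoters on either strand, and the shorter CAGAC, which occurs in 42.2%, were in neither printed window. Methylation at these CpGs was not analysed here.

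All 10 genes were well detected in every library, with Smad4 and Tgfb1 at the top and Smad6 at the bottom. Scaled to the length of the union of exons in the GENCODE M21 annotation, the median level over 19 libraries was 30.1 CPM per kilobase for Smad4 and 29.2 for Tgfb1. Tgfbr3 followed at 17.8, Smad3 at 15.0 and Tgfbr2 at 10.4 CPM per kilobase. The remaining medians were 7.17 for Smad2, 5.34 for Smad7, 4.93 for Tgfbr1, 4.72 for Ski and 2.93 for Smad6. Neighbours in this order were not cleanly apart, since the higher gene led in only 12 to 16 of 19 libraries, except Tgfbr2 over Smad2 and Ski over Smad6, which held in 19 of 19. With the longest transcript as the length, Tgfb1 (57.3) came before Smad4 (33), and no other rank changed. The fewest counts of any member were 104, for Smad6 in 1 library, and Tgfb1 had 2475 to 13168 counts. SMART-seq covers full transcripts but amplification can favour some, so these levels per kilobase are approximate.

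**Figure D1:**
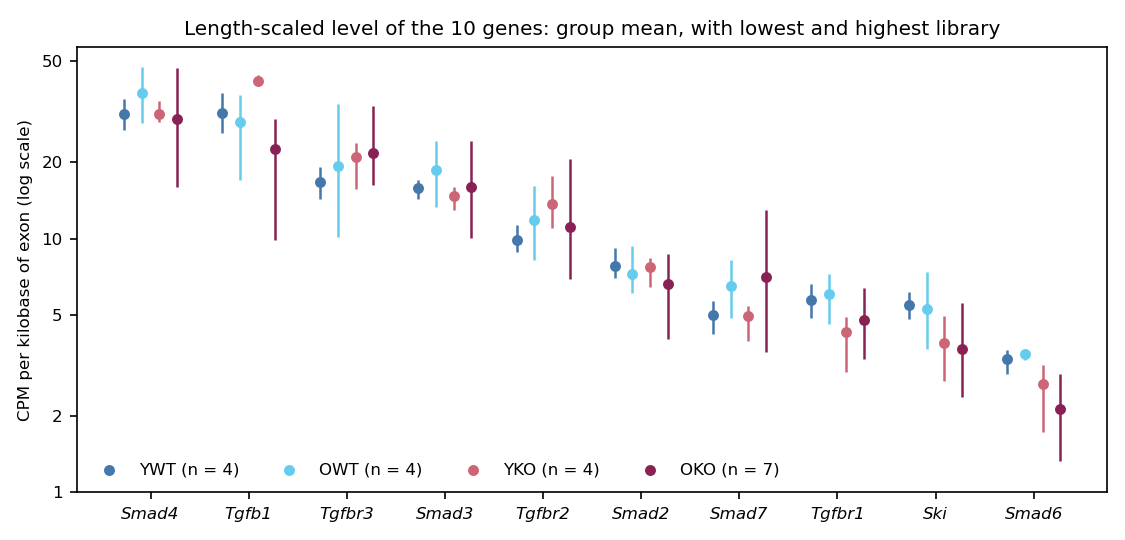
Levels in CPM per kilobase of union exon (log axis) for the 10 genes, ordered by their median over 19 libraries. Points are group means and lines run from the lowest to the highest library of YWT (n = 4), OWT (n = 4), YKO (n = 4) and OKO (n = 7). Smad4 and Tgfb1 are highest and Smad6 is lowest in each group, and the group ranges of neighbouring genes mostly overlap.

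None of the 10 genes passed the test in any of the 4 comparisons. Genes were called at an adjusted p under 0.05 over all tested genes and a fold change over 1.5. The count was 0 of 10 in OWT vs YWT, where 0.00297% of tested genes were called, 0 of 10 in YKO vs YWT (0.0267%), 0 of 10 in OKO vs YKO (1.29%) and 0 of 10 in OKO vs OWT (0.0327%). At such shares, 0 of 10 does not set the members apart from other genes. DESeq2 called 0, 0, 1 (Tgfb1) and 0 members in the same order, where it called 0.401%, 0.404%, 6.3% and 0.217% of tested genes. At an unadjusted p under 0.05, the members counted 0, 0, 1 (Tgfb1) and 1 (Smad6) in the same order, where 4.38%, 4.59%, 15.8% and 8.14% of tested genes passed. The members' median log2 fold changes were 0.14, -0.01, -0.07 and -0.28, and those of all tested genes were -0.05, -0.02, 0.23 and 0.12. The members' medians shifted with the processing. With batch as a covariate the OWT vs YWT median was -0.46, and that of all tested genes was 0.19. Then 10 of 10 members were below 0, against 3 of 10 in the fit without it. Age and batch are tied in the wild type. Only OKO holds both batches, so the batch term rests on OKO1 to OKO3 against OKO4 to OKO7. The OKO vs OWT median was -0.05 under upper-quartile scaling, -0.003 at a mean CPM of at least 5, -0.06 without OKO1, OKO2 and OKO3 and 0.03 without a factor. Among the 7097 tested genes that averaged 5 or more on the log2 CPM scale, nearer to the members in level, the medians were 0.05, 0.07, -0.24 and -0.21. Comparisons that share a group are not independent of each other.

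**Figure D2:**
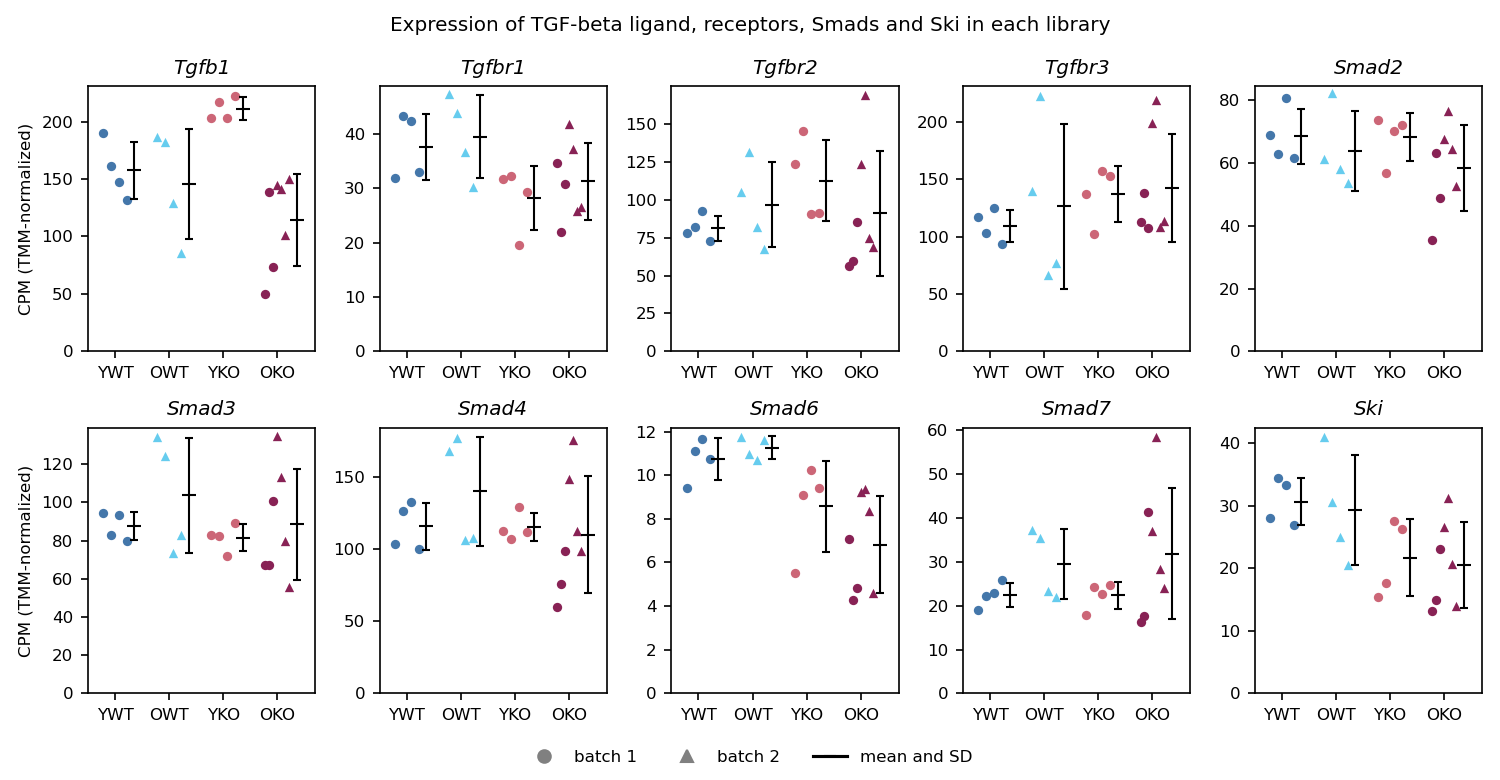
CPM after trimmed-mean scaling of each gene in each library (y axis from 0), by group. Circles are batch 1 and triangles batch 2, and the bar beside each group is the mean and SD. YKO libraries of Tgfb1 lie at 203 to 222, above all YWT (131 to 190.1) and all OKO libraries (49.8 to 149.7), and OKO libraries of Smad6 (4.26 to 9.38) lie below all OWT libraries (10.7 to 11.8).

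Tgfb1, the ligand, was highest in YKO. Its level was 190.1, 161.4, 147.3 and 131.3 CPM in YWT, 186.3, 182.6, 128.9 and 85.6 in OWT, 202.7, 217.0, 203.0 and 222.3 in YKO, and 49.8, 138.5, 73.8, 145.2, 141.6, 101.7 and 149.7 in OKO1 to OKO7. All 4 YKO libraries were above all YWT libraries and all 7 OKO libraries were below all YKO libraries, while OWT overlapped with both YWT and OKO. Such separation was seen in 2.12% of tested genes for YKO above YWT and in 1.48% for OKO below YKO. Without the trimmed-mean factor it was lost in both, with 3 of 4 YKO libraries above YWT and 6 of 7 OKO libraries below YKO.

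The log2 fold change of Tgfb1 in YKO vs YWT was 0.42 (SE 0.30, 95% interval -0.19 to 1.04, edgeR adjusted p = 1.00). In OKO vs YKO it was -0.89 (SE 0.26, 95% interval -1.42 to -0.35, edgeR adjusted p = 0.0906), which did not pass. This value stood near the threshold: over 30 alternatives it ranged from -1.27 to -0.63, with adjusted p from 0.0076 to 0.22, and it was called by DESeq2 (-0.84, adjusted p = 0.00946) and in 5 others, among them the fit without OKO7 (-0.96, edgeR adjusted p = 0.0374). Those settings also called more genes overall than the 1.29% above, at 6.3% of tested genes for DESeq2, 3.2% for upper-quartile scaling, 12.1% at a mean CPM of at least 5, 19.1% with batch as a covariate, 17.9% with OKO of batch 1 alone and 5.47% without OKO7. Within batch 1, the 3 OKO libraries held 87.4 ± 45.9 CPM (SD, n = 3) and the YKO libraries 211 ± 9.96 (SD, n = 4), with 3 of 3 below. How many of all genes separate so within batch 1 was not counted. Without the trimmed-mean factor OKO2 (172.1 CPM) was above YKO1 (171.55 CPM). The fit with OKO of batch 1 alone gave -1.21 (edgeR adjusted p = 0.0117). Without OKO1, OKO2 and OKO3, where age and batch cannot be told apart, the Tgfb1 change was -0.63 (SE 0.21, edgeR adjusted p = 0.192). The difference of the age effects between genotypes, -0.77 (SE 0.40, edgeR adjusted p = 0.811), did not pass. B cell, T cell, erythroid, and monocyte and macrophage markers had negative median log2 fold changes in OKO vs YKO too (-2.79, -2.09, -2.09 and -1.32). Of these, 5 of 8, 2 of 6, 3 of 7 and 1 of 8 were called lower, against 0.692% of all tested genes. The summed level of each type overlapped between OKO and YKO. Ly6c2, a monocyte and macrophage marker, reached 131.2 CPM in OKO7, against at most 32.6 in YKO. YKO held the highest summed B cell and erythroid levels of any group. The part of these cell types in the Tgfb1 difference was not tested.

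**Figure D3:**
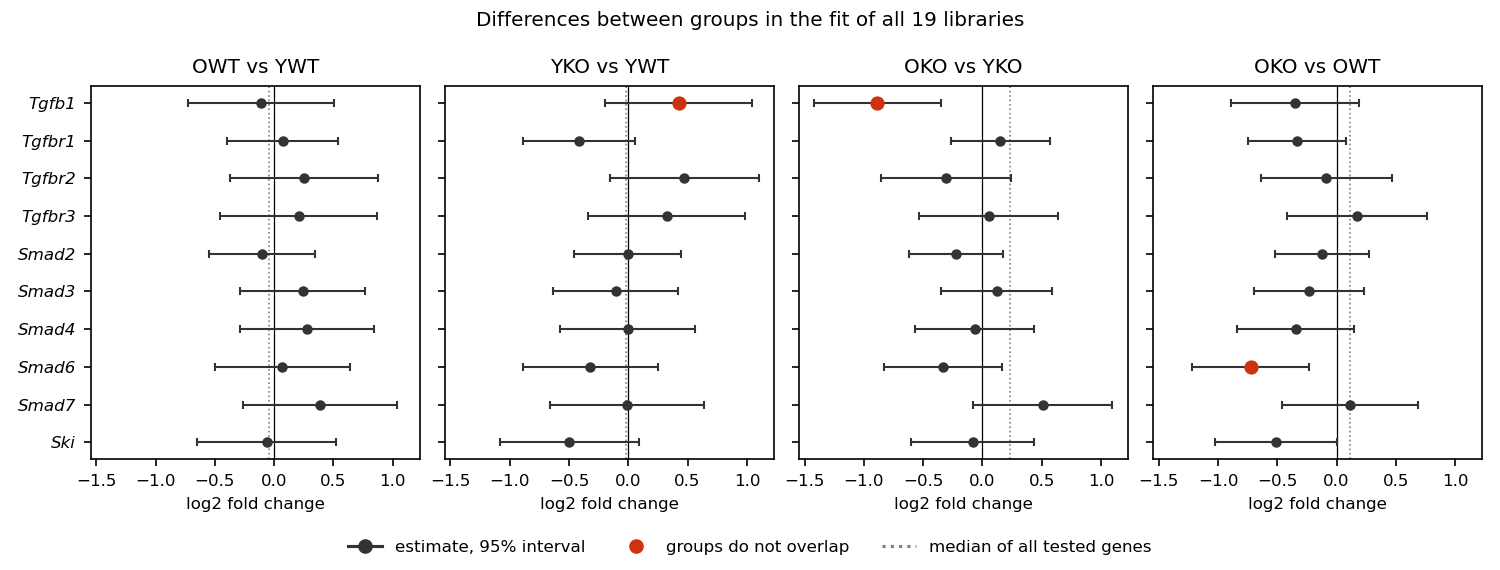
Log2 fold changes (x axis) of the 10 genes in the 4 comparisons, with 95% intervals from the fit of all 19 libraries. Red points mark genes whose groups did not overlap, and the dotted line is the median of all tested genes. Only the intervals of Tgfb1 in OKO vs YKO (-1.42 to -0.35) and Smad6 in OKO vs OWT (-1.22 to -0.23) leave out 0.

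Tgfbr1 and Tgfbr2, the signalling receptors, were at unlike levels in YKO relative to YWT, Tgfbr1 lower and Tgfbr2 higher, and neither passed. Tgfbr1 was at 31.8, 43.3, 42.3 and 33 CPM in YWT and at 31.7, 32.2, 19.5 and 29.2 in YKO, with 3 of 4 YKO libraries below every YWT library (log2 fold change -0.42, 95% interval -0.89 to 0.05, edgeR adjusted p = 1.00). It was at 47.4, 43.8, 36.6 and 30.1 CPM in OWT and ranged from 22 to 41.9 (median 30.8) in OKO. The groups overlapped in each of the 4 comparisons.

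Tgfbr2 was at 77.8, 81.7, 92.4 and 72.7 CPM in YWT and at 123.5, 145.2, 90.6 and 90.9 in YKO (0.47, 95% interval -0.15 to 1.10, edgeR adjusted p = 1.00). In OWT it was at 105.3, 131.6, 82.1 and 67.8 CPM, and OKO ranged from 56.6 to 168.9 (median 74.7), so the OKO group spanned all others. The OKO vs YKO change was -0.31 (SE 0.27, edgeR adjusted p = 0.588). It differed with the batch of OKO. OKO of batch 1 alone held 67.1 ± 15.6 CPM (SD, n = 3), 3 of 3 below YKO. The fit with these alone called it (-0.68, edgeR adjusted p = 0.0496), as it did 17.9% of tested genes. Without the trimmed-mean factor OKO1 to OKO3 held 102.8, 74.0 and 120.0 CPM and overlapped with YKO (84.9 to 138.9). How many of all genes separate so within batch 1 was not counted. Without OKO1, OKO2 and OKO3, where age and batch cannot be told apart, the change was -0.02 (edgeR adjusted p = 0.990).

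Tgfbr3, the co-receptor, spread widely in OWT. It was at 116.7, 102.9, 125.0 and 93.8 CPM in YWT and at 139.8, 222.7, 66.6 and 76.6 in OWT, so OWT libraries lay on both sides of YWT. YKO libraries were at 137.4, 102.6, 156.7 and 152.5 CPM, and OKO ranged from 107.1 to 219.0 (median 113.5). The fold changes ran from 0.05 to 0.33 on the log2 scale in the 4 comparisons, with edgeR adjusted p from 0.806 to 1.00. Of the exons of Tgfbr3, 297 bases (4.54%) are shared with the annotated gene Gm43422 on the same strand, and no other member overlapped another gene's exons.

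Smad2, Smad3 and Smad4, which carry the signal to the nucleus, gave fold changes near 0 in YKO vs YWT. Smad2 was at 68.4 ± 8.79 CPM in the 4 YWT libraries (mean ± SD), 63.7 ± 12.6 in the 4 of OWT, 68.1 ± 7.72 in the 4 of YKO and 58.3 ± 13.7 in the 7 of OKO. Smad3 was at 87.8 ± 7.46, 103.7 ± 29.9, 81.5 ± 7.14 and 88.5 ± 28.9 CPM in the same order. Smad4 was at 115.5 ± 16.2, 139.8 ± 38.0, 115.0 ± 9.85 and 109.9 ± 40.3 CPM. The old groups of Smad3 and Smad4 spread more than the young groups, and the groups overlapped in each of the 4 comparisons.

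The YKO vs YWT changes were -0.01 for Smad2 (95% interval -0.45 to 0.44), -0.11 for Smad3 (-0.63 to 0.42) and -0.01 for Smad4 (-0.57 to 0.56), so changes of up to about these bounds cannot be told from none. In OKO vs YKO, Smad4 was at -0.07 (95% interval -0.57 to 0.43, edgeR adjusted p = 0.909). That value differed between the batches of OKO. The 3 libraries of batch 1 held 78.1 ± 19.8 CPM (SD, n = 3), 3 of 3 below YKO (fit of batch 1 alone -0.49, edgeR adjusted p = 0.111). How many of all genes separate so within batch 1 was not counted. Without the trimmed-mean factor OKO1 to OKO3 held 108.1, 94.3 and 139.4 CPM and overlapped with YKO (95.1 to 123.1), with OKO3 above every YKO library. Without OKO1, OKO2 and OKO3, where age and batch cannot be told apart, the change was 0.24 (edgeR adjusted p = 0.719).

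Neither of the inhibitory Smads, Smad6 and Smad7, passed the test in a comparison with OKO. Smad6 was at 9.4, 11.1, 11.7 and 10.7 CPM in YWT, 11.8, 11, 10.7 and 11.6 in OWT, 5.5, 9.1, 10.2 and 9.4 in YKO, and 7.1, 4.3, 4.8, 9.2, 9.4, 8.3 and 4.6 in OKO1 to OKO7. All 7 OKO libraries were below all OWT libraries, as in 0.359% of tested genes, and OKO overlapped with YKO. Without the trimmed-mean factor 6 of 7 OKO libraries were below OWT, and OKO1 was then above every OWT library.

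The log2 fold change of Smad6 in OKO vs OWT was -0.72 (SE 0.24, 95% interval -1.22 to -0.23, edgeR adjusted p = 0.592), which did not pass in the fit or in any of 30 alternatives (-0.85 to -0.43, adjusted p from 0.204 to 1.00). Within batch 2, OKO held 7.90 ± 2.23 CPM (SD, n = 4) and OWT 11.3 ± 0.525 (SD, n = 4), with 4 of 4 below. How many of all genes separate so within batch 2 was not counted. Without OKO1, OKO2 and OKO3 the change was -0.48 (SE 0.25, edgeR adjusted p = 1.00). Granulocyte markers were also lower in OKO than in OWT, at 29.8 to 312 against 300.0 to 564 CPM summed over 8 of 8 detected markers. Of these, 0 of 8 were called and 7 of 8 had an unadjusted p under 0.05, against 8.14% of all tested genes. Being markers of 1 cell type, they are not separate results. Their part in the Smad6 difference was not tested.

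Smad7 was at 19.1, 22.3, 23.0 and 25.8 CPM in YWT, 37.2, 35.4, 23.4 and 21.9 in OWT, and 17.8, 24.3, 22.7 and 24.6 in YKO. OKO ran from 16.2 to 58.4 CPM (median 28.3), with 4 of 7 libraries above and 2 of 7 below all YKO libraries. The OKO vs YKO change was 0.51 (SE 0.28, edgeR adjusted p = 0.385) and the OWT vs YWT change 0.39 (SE 0.31, edgeR adjusted p = 1.00). Neither passed. OKO5 held the highest value of all libraries, and without it the OKO vs YKO change was 0.29 (edgeR adjusted p = 0.527). With batch as a covariate it was 0.16 (edgeR adjusted p = 0.711).

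Ski, the co-repressor, was at 28.0, 34.4, 33.3 and 26.9 CPM in YWT and at 15.3, 17.6, 27.6 and 26.2 in YKO, with 3 of 4 YKO libraries below all YWT libraries (-0.50, SE 0.28, edgeR adjusted p = 1.00). OWT libraries held 41.0, 30.6, 25 and 20.5 CPM, and OKO ranged from 13.2 to 31.1 (median 20.7), with 3 of 7 below every OWT library (-0.51, SE 0.25, 95% interval -1.03 to 7.6e-05, edgeR adjusted p = 0.592). Without OWT1, the highest of the OWT libraries, the change was -0.29, not called, and without OKO1, OKO2 and OKO3 it was -0.31 (edgeR adjusted p = 1.00). The age changes were -0.06 in the wild type and -0.08 in the knockout. No member passed the test of the difference in age effects between genotypes, where edgeR called 0% of all tested genes, DESeq2 called 7 genes and 4.62% had an unadjusted p under 0.05. Of the 10 members, 0 were at that level.

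**Figure D4:**
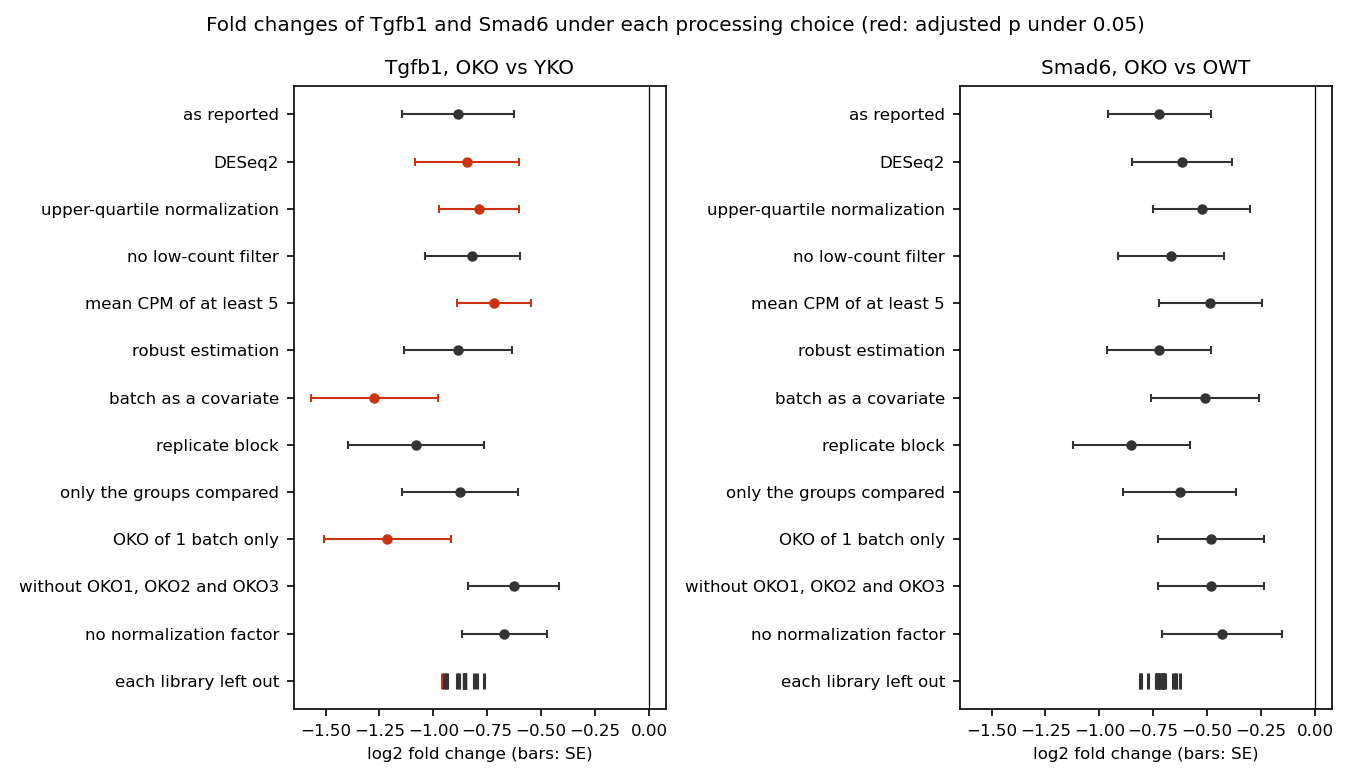
Log2 fold change (x axis) of Tgfb1 in OKO vs YKO and of Smad6 in OKO vs OWT under each processing choice, with bars for the SE, and 1 tick for each fit that leaves out a library. Red marks an adjusted p under 0.05. Every value lies below 0, Tgfb1 from -1.27 to -0.63 and Smad6 from -0.85 to -0.43.

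Of 62 other genes of the pathway, sorted by role, 62 were tested, and calls were made in OKO vs YKO alone, with 2 higher and 2 lower. There 0.597% of tested genes were called higher and 0.692% lower. By role, 1 of 10 receptors and 1 of 10 Smads and partners were called higher and 2 of 16 targets lower, and none of 12 ligand and latency genes, 10 turnover and inhibition genes or 4 kinases of the Smad-independent arm was called. The median log2 fold change of the 62 genes was 0.22 for age in the wild type, -0.01 for genotype in young mice, 0.18 for age in the knockout and -0.17 for genotype in old mice. Where edgeR made no call, the genes of the 62 at an unadjusted p under 0.05 numbered 7 in OWT vs YWT, 10 in YKO vs YWT and 7 in OKO vs OWT, against 4.38%, 4.59% and 8.14% of all tested genes. DESeq2 called 2, 0 and 1 of the 62 in the same order, against 0.401%, 0.404% and 0.217% of tested genes.

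Bmpr1a, a type I receptor for bone morphogenetic proteins, rose in OKO relative to YKO. It was at 9.2, 5.9, 3.0 and 5.4 CPM in YKO and 7.8 to 32.5 (median 23.9) in OKO, with 6 of 7 OKO libraries above all YKO libraries (log2 fold change 1.97, SE 0.33, edgeR adjusted p = 0.00307). In the wild type, where age and batch cannot be told apart, it was at 7.9, 11, 6.4 and 7.4 CPM in YWT. It was at 31.8, 25.7, 23.0 and 19.5 CPM in OWT (1.61, SE 0.34, edgeR adjusted p = 0.169). DESeq2 called this difference.

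Zfyve9 (SARA), which anchors Smad2 and Smad3 at the receptor, rose from 2.3, 4.3, 3.5 and 2.4 CPM in YKO to 4.3 to 17.4 (median 9.1) in OKO (1.62, SE 0.34, edgeR adjusted p = 0.0176). The lowest OKO library lay barely above the highest YKO library. Id3, an inhibitor of basic helix-loop-helix factors, fell from 14.3, 22, 8.3 and 5.3 CPM to 0.8 to 3.3 (median 1.6), with 7 of 7 below YKO (-2.72, SE 0.40, edgeR adjusted p = 0.00109). In the wild type, where age is tied to batch, it was at 1.0 to 3.1 CPM in OWT and 3.7 to 8.7 in YWT (-1.71, SE 0.47, edgeR adjusted p = 0.411). Id3 is also expressed in B lineage cells, whose markers were lower in OKO, and their part was not tested. Myc, a growth regulator that TGF-beta represses in many cells, fell from 766.7, 502.3, 661.0 and 599.1 CPM to 134.9 to 485.7 (median 285.7), with 7 of 7 below YKO (-1.09, SE 0.27, edgeR adjusted p = 0.0449). All 4 YKO libraries of Myc were also above all YWT libraries (329 to 475 CPM), while OKO overlapped with OWT (296 to 425) and OWT with YWT. Of all tested genes, 1.48% had every OKO library below every YKO library, as Id3 and Myc did. Every YKO library was above every YWT library in 2.12%, as for Myc. Within batch 1, OKO1 to OKO3 held 26.0, 20.8 and 23.9 CPM of Bmpr1a and 13.7, 9.1 and 17.4 of Zfyve9. They held 1.8, 1.6 and 0.8 CPM of Id3 and 134.9, 285.7 and 164.8 of Myc. Without OKO1, OKO2 and OKO3, Bmpr1a and Id3 were called and Zfyve9 and Myc were not. In that fit age and batch cannot be told apart.

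The other pathway genes with the widest differences did not pass. In OWT vs YWT these were Ltbp4, which binds latent TGF-beta (log2 fold change 1.22), Id2 (1.01) and the matrix protein gene Tgfbi (1.00). In YKO vs YWT they were Ltbp4 (1.09), the target Tsc22d1 (-0.92) and the receptors Bmpr2 (-0.89) and Acvr2a (-0.82). In OKO vs YKO they were Tgfbi (1.19), Gadd45b (-1.10), the transcription factor gene Bhlhe40 (1.07) and the activin receptor gene Acvr1b (1.06). In OKO vs OWT they were Gadd45b (-1.37), Tsc22d1 (-0.87), the cell cycle inhibitor gene Cdkn1c (-0.71) and Thbs1, whose product can activate latent TGF-beta (-0.58).

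**Figure D5:**
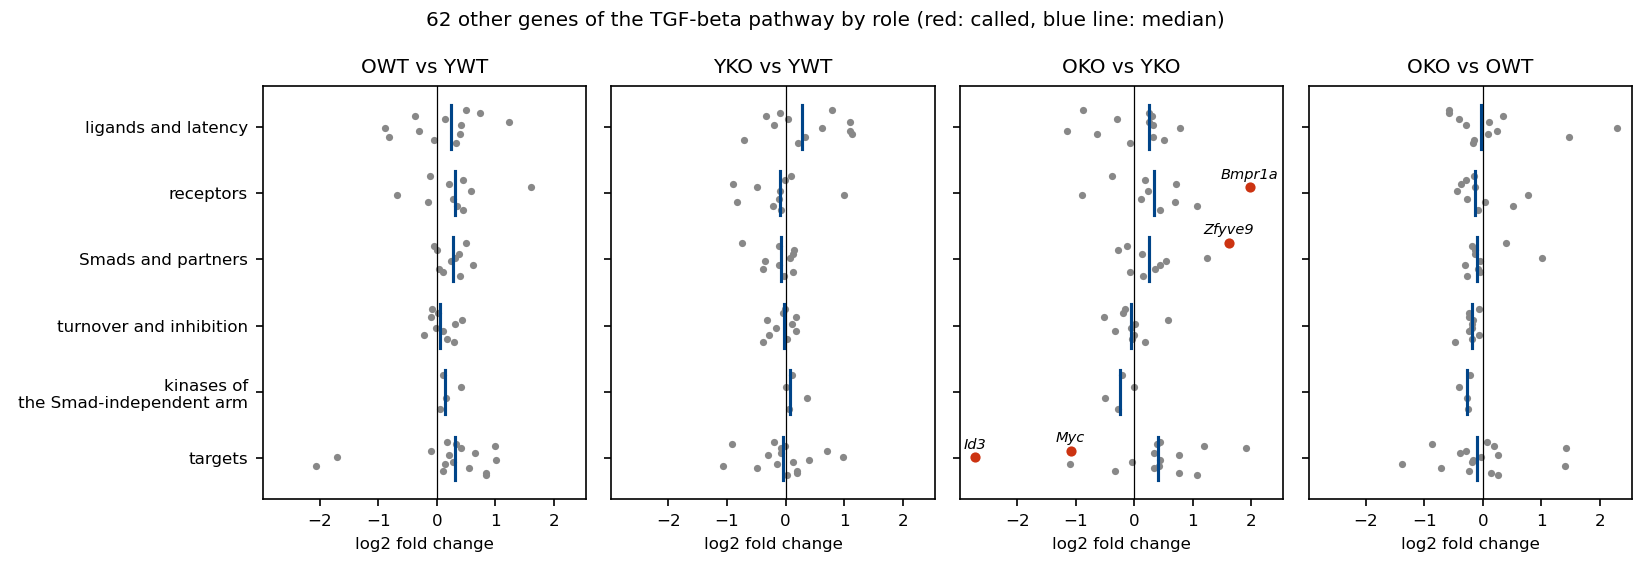
Log2 fold changes (x axis) of 62 other TGF-beta pathway genes by role (y axis) in the 4 comparisons. Each point is a gene, the blue line is the median of the role and red points passed the test. The 4 called genes, Bmpr1a, Zfyve9, Id3 and Myc, all stand in OKO vs YKO.

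Across the 19 libraries Spearman's rho of log2(CPM + 1) between members was positive in 43 of 45 pairs, with a median of 0.467. It was highest between Smad6 and Ski (0.761) and between Tgfbr2 and Smad4 (0.758) and lowest between Tgfbr3 and Smad6 (-0.04). The genes most like each member among 7096 others at an average log2 CPM of 5 or more were Rbm14 for Tgfb1 (rho 0.958), Fem1c for Tgfbr1 (0.840), Wdr81 for Tgfbr2 (0.918), Cpne2 for Tgfbr3 (0.888), Ankrd10 for Smad2 (0.902) and Sort1 for Smad3 (0.884). They were Pygb for Smad4 (0.961), Serpinf1 for Smad6 (0.907), Ppp1r9b for Smad7 (0.868), and Git1 and Hcls1 for Ski (0.911 each). These values describe 19 libraries that share groups, batches and scaling.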

How the data were processed

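RNA-seq was available for 19 libraries in 4 groups. The authors sorted HSCs (Lin- cKit+ Sca1+ CD34- Flk2- CD150+), prepared SMART-seq v4 libraries, trimmed reads with Trim Galore 0.4.3 and cutadapt, aligned them with STAR and deposited raw counts per gene symbol from featureCounts. The strand setting is not given in the sources used here. Counts were tested in R 4.3.3 with edgeR 4.0.16 (filterByExpr, trimmed-mean (TMM) normalization, glmQLFit and glmQLFTest) in 1 fit of 19 libraries with a mean per group and no covariate. A gene was called at a Benjamini-Hochberg adjusted p under 0.05 over 33690 tested genes and a fold change over 1.5 (adjusted p alone for the difference of age effects). Alternatives were DESeq2 1.42.0, other scalings and filters, batch, a replicate block, subsets and each library left out. Lengths came from GENCODE M21 (mm10), which held 54510 of 55376 symbols, and promoters from RefSeq. The members and gene lists were chosen with earlier results of these data known. Other pathway genes were named if called, or among the 4 of widest log2 fold change per comparison at a mean log2 CPM of at least 3. Nothing states that libraries of a group came from separate animals, so p-values measure the spread between libraries. The bisulfite libraries were not analysed here. No libraries held identical counts. Total counts of 22197555 to 77970627 set the counting precision, and SDs cover libraries.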

Additional observations from a re-analysis of the deposited data

How the results depend on the processing

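Of 1470 values of members under alternatives, 1353 kept their sign and were not called, 7 kept it and were called, 110 changed sign without being called, and 0 changed sign as calls. The count of members called in OKO vs YKO moved from 0 to 1 (Tgfb1) under DESeq2, upper-quartile scaling, a mean CPM of at least 5 and batch as a covariate, and to 2 (with Tgfbr2) with OKO of 1 batch only. Leaving out each library gave 0 to 1, the 1 being without OKO7. In the other comparisons it was 0 throughout. Pathway calls in OWT vs YWT moved from 0 to 2 under DESeq2 and to 1 with only the groups compared, and leaving out each library gave 0 to 1 (1 without OKO7). In OKO vs YKO they moved from 4 to 13 under DESeq2, 7 under upper-quartile scaling, 13 at a mean CPM of at least 5, 10 with batch as a covariate, 12 with OKO of 1 batch only, and 2 with only the groups compared and without OKO1, OKO2 and OKO3. Leaving out each library gave 2 (YKO1 or YKO4) to 7 (OKO7). Higher and lower calls were 2 and 2 in the fit, 9 and 4 under DESeq2, 5 and 2 under upper-quartile scaling, and 3 and 7 with batch as a covariate. In OKO vs OWT they moved from 0 to 1 (Gadd45b) under DESeq2. The fits without OKO1, OKO2 and OKO3 and without a normalization factor were chosen after seeing the data. The causes were not tested. The median of all tested genes in OKO vs YKO, 0.23 on the log2 scale, became 0.43 under upper-quartile scaling and 0.63 without a factor, and the members' median moved from -0.07 to 0.04 and 0.18.

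Same-numbered libraries did not deviate together (24 pairs, 2 with a correlation over 0.1, median -0.12), so the numbers are taken as names. With the replicate block, 0 members were called in each comparison, 6 pathway genes were called in OKO vs YKO, and calls over all genes were 9 in OWT vs YWT, 25 in YKO vs YWT, 1774 in OKO vs YKO and 0 in OKO vs OWT. Batch is tied to age in the wild type, each group holds 4 to 7 libraries, and Smad6, with as few as 104 counts, is the least deeply counted member.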

Other observations

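Ratios between members were looked at after their values were seen and are given without a test. The ratio of Tgfbr2 to Tgfbr1 CPM ran from 1.89 to 2.44 in YWT, 2.22 to 3.01 in OWT, 3.11 to 4.65 in YKO and 1.64 to 4.54 in OKO. Every YKO library thus lay above every wild-type library, while OKO overlapped with each group. How often other pairs of genes separate so was not counted. The ratio of Smad7 to Smad6 CPM was 2.10 ± 0.201 in the 4 YWT libraries (mean ± SD), 2.62 ± 0.678 in the 4 of OWT, 2.68 ± 0.410 in the 4 of YKO and 4.83 ± 2.06 in the 7 of OKO, with OKO from 2.30 to 8.54. A ratio within a library does not depend on its scaling factor.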
